A study of Homo sapiens with 6 samples.

Results

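Kinesins are the motor proteins encoded by the KIF genes. The 38 genes described were those whose symbol is KIF followed by a digit and, at most, a letter, among 18417 genes measured by a probe set that names exactly 1 gene. By their known work they were divided into 12 mitotic kinesins, 13 cargo transport kinesins and 13 other kinesins with ciliary, centriolar, mixed or little-known roles. KIF4B, a near-identical copy of KIF4A, shares its probe set with KIF4A and has no value of its own, and the pseudogene KIF28P was not analysed here. The antisense gene KIF25-AS1 is not a kinesin and was left out.

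RNA of A204, an established rhabdoid tumour cell line, was measured on 6 Affymetrix whole-transcript arrays. For 3 arrays the cells had received SAHA (vorinostat, which inhibits histone deacetylases) over 12 h, at a dose that the labels print as 10 with an incomplete unit. The other 3 arrays are controls, given DMSO in the treatment protocol, although a second label states no treatment. All arrays come from 1 cell line grown in DMEM with serum. No label names separate cultures, so p-values reflect only the spread between these arrays, and that spread may be technical. Values are RMA signals (background-corrected, quantile-normalized probe set summaries) on the log2 scale, where a difference of 1 is a 2-fold difference. Median deposited signals per array were 142 to 149 in linear units. RMA levels belong to their own probe set, so no difference in level between genes is given as a result, and the number of arrays limits the precision.

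Kinesins walk along or take apart microtubules, using ATP. In dividing cells, mitotic kinesins push the spindle poles apart, position chromosomes, correct faulty attachments and organise the midzone where the cell is cut, and most of their genes are transcribed mainly in the G2 and M phases. Cargo transport kinesins carry vesicles, organelles, proteins and RNA towards microtubule plus ends, work in cells that do not divide, and are best known from axons and cilia.

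In promoters of cell-cycle genes, the CHR element is bound by complexes that contain MuvB. Among these, DREAM silences late cell-cycle genes in resting cells. CCAAT boxes nearby bind NF-Y. Promoter sequences of 32 of the 38 genes were in the RefSeq table (GRCh38.p14), from 250 bases before the start of transcription to 50 bases after it, and those of KIF13B, KIF19, KIF21B, KIF26B, KIF27 and KIF5A were not. Only the first entry of each gene was kept, so promoters at other starts of transcription were not searched. Stretches from base -100 to base 50 are shown to let the motifs of 6 mitotic kinesin genes be compared with those of 2 transport kinesin genes. The 2 transport genes shown hold no CHR or CCAAT match, whereas KIF5B, KIF3B and KIF1B, not shown, hold matches. They read 5′ to 3′ on the strand of the gene, with matches to the CHR (TTTGAA or TTCGAA) and to the CCAAT box (CCAAT), on either strand, in capitals.
KIF11 (chr10:92593030-92593179, plus strand): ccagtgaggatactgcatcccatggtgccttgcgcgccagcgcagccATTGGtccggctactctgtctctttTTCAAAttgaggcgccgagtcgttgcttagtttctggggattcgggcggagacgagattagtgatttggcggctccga
KIF4A (chrX:70290004-70290153, plus strand): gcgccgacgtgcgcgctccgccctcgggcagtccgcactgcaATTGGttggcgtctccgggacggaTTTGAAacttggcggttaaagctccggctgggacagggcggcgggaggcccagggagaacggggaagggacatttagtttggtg
KIF18A (chr11:28108107-28108256, minus strand): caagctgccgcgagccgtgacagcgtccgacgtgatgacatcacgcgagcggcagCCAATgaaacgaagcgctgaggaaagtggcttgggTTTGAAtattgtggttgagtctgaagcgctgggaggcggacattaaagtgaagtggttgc
KIF14 (chr1:200620702-200620851, minus strand): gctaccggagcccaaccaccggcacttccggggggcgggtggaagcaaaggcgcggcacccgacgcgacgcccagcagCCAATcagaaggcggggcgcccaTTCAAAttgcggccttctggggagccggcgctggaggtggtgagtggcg
KIF15 (chr3:44761694-44761843, plus strand): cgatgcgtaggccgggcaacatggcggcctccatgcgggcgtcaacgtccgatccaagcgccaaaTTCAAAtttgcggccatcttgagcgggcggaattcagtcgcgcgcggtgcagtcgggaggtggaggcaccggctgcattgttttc
KIF2C (chr1:44739737-44739886, plus strand): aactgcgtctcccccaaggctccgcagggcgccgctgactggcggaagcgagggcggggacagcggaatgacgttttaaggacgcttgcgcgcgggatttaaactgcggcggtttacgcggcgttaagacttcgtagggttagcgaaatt
KIF3A (chr5:132737497-132737646, minus strand): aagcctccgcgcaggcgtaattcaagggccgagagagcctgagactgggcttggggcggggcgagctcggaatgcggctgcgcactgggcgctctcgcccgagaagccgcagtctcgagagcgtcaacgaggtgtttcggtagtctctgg
KIF5C (chr2:148947775-148947924, plus strand): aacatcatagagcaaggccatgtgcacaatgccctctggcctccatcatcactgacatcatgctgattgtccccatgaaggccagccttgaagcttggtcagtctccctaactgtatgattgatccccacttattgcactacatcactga

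A CHR match lay in 9 of 12 mitotic kinesin promoters (75%), in 1 of 11 transport kinesin promoters (9.09%) and in 1 of 9 promoters of other kinesins (11.1%). Among all 27303 promoters of that length, a set not limited to the genes tested on the arrays, 16.6% held one. In the 9 mitotic genes (KIF4A, KIF11, KIF14, KIF15, KIF18A, KIF18B, KIF20B, KIF22 and KIF23) the match began within 60 bases of the start of transcription. The transport gene with a match was KIF5B, at base -140, and the other kinesin gene with one was KIF24, at base 2.

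A CCAAT box matched in 9 of 12 mitotic promoters, 3 of 11 transport promoters, 3 of 9 other kinesin promoters and 35.7% of all promoters. A CHR and a CCAAT box occurred together in 8 of 12 mitotic promoters, 1 of 11 transport promoters, 1 of 9 other kinesin promoters and 6.58% of all. In those 8 mitotic promoters the CHR began after the nearest CCAAT box by 9 bases (KIF23) to 122 bases (KIF20B). The distance was 23, 24 and 25 bases in KIF14, KIF4A and KIF11. KIF24, of the other kinesins, had the same order, at 48 bases. In KIF5B the order was turned, with the CHR 81 bases before the CCAAT box.

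KIF15 had no CCAAT match, and was the only mitotic kinesin gene with a match to an E2F site (TTTGGCGC, TTTCCCGC, TTTCGCGC or TTTGCCGC). This lay at base -43, directly before the CHR at base -35. Such E2F matches were in 3.33% of all promoters. GC boxes (GGGCGG), which bind SP factors, separated the groups less: they matched in 10 of 12 mitotic, 9 of 11 transport and 9 of 9 other kinesin promoters. Of all promoters 44.6% held one. Matches of different motifs did not overlap in any kinesin promoter. These are matches of letters, with no binding measured in these cells, and the shares carry no test. The motifs were chosen with earlier results of these data known.

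**Figure D1:**
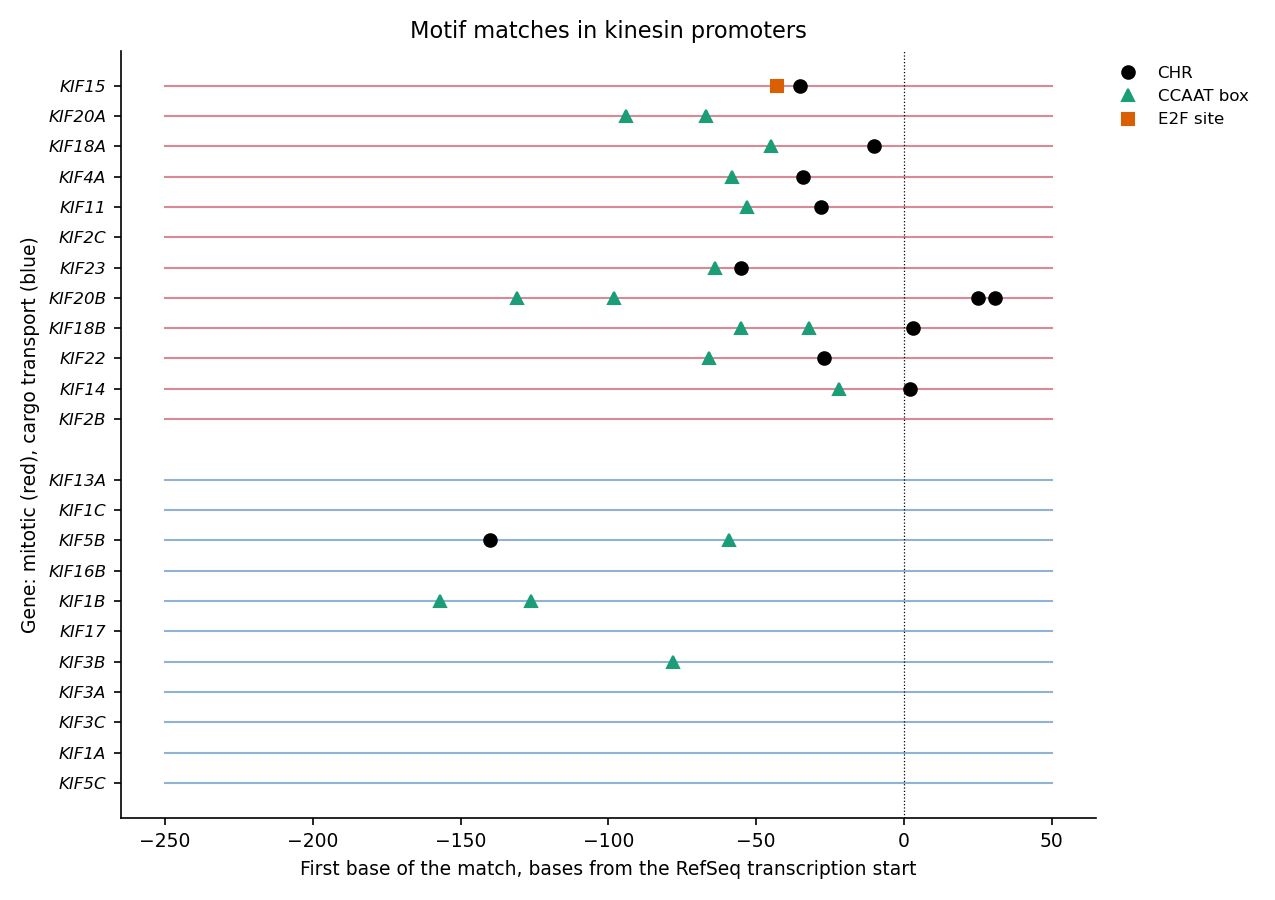
Positions of CHR, CCAAT box and E2F matches (first base, x axis, in bases from the RefSeq start of transcription) in 12 mitotic and 11 cargo transport kinesin promoters (rows). Within each group the genes are ordered from the lowest to the highest change after SAHA, and the CHR matches of the mitotic genes lie close to the start.

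SAHA was compared with control to find which transcripts differ after 12 h of HDAC inhibition. The kinesins split by role. Of the 12 mitotic kinesins 11 fell, each by at least 2-fold, 0 rose and 1 (KIF2B) did not pass the test. Of the 13 cargo transport kinesins 10 rose and 3 fell, with 5 rises and 0 falls of at least 2-fold. Of the 13 other kinesins 4 rose, 3 fell and 6 did not pass. The 3 SAHA values lay apart from the 3 control values in 32 of the 38 kinesins, against 65.4% of all genes. Genes were tested with limma at a Benjamini-Hochberg adjusted p under 0.05 over all 18417 genes, of which 60% were called, 28.9% lower (5.42% by at least 2-fold) and 31.1% higher (5.84% by at least 2-fold).

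The median change, SAHA minus control on the log2 scale, was -2.88 over the mitotic kinesins, 0.76 over the transport kinesins and 0.029 over the other kinesins, against -0.0027 over all genes. The difference of the medians, mitotic minus transport, was -3.64. Each of the 11 mitotic kinesins that fell had a lower change than every transport kinesin. Among all genes ordered by change, 10 of 12 mitotic kinesins were in the lowest 1%, while 7 of 13 transport kinesins were in the highest 10%. Taking each array's median deviation from the control means, the mitotic kinesins were at -2.82, -2.99 and -2.84 on the SAHA arrays and the transport kinesins at 0.79, 0.66 and 0.82. The groups were defined by known roles, but with earlier results of these data known. Their members are not replicates, and the difference between the groups carries no test.

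**Figure D2:**
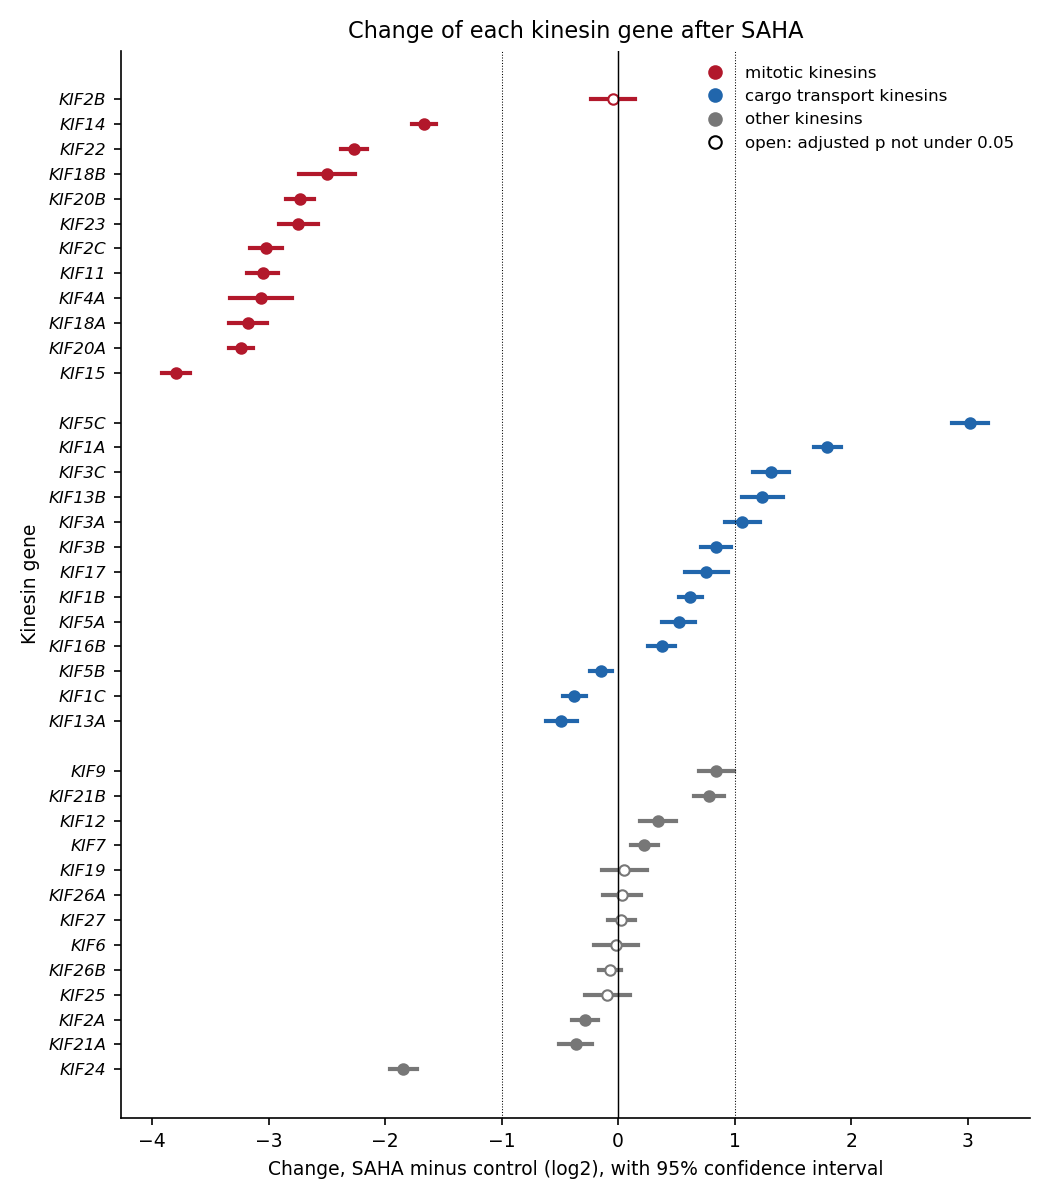
Change of each of the 38 kinesin genes (x axis, SAHA minus control, log2) with its 95% confidence interval from limma, n = 3 arrays per group. Filled circles passed the test, open circles did not, and dotted lines mark 2-fold. The 11 mitotic kinesins that passed lie between -3.79 and -1.67, left of all transport kinesins, which lie between -0.49 and 3.02.

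The falls included the spindle motors. KIF15, with the largest fall of all 38 kinesins, a motor that helps hold the spindle poles apart, had log2 values of 9.76, 9.66 and 9.66 in control and 5.96, 5.92 and 5.83 in SAHA. Its change of -3.79 was a 13.9-fold fall (SE 0.052, adjusted p = 5.41e-09). KIF11, known as Eg5, is the main motor that slides the spindle poles apart and the target of several antimitotic drugs. Its values were 11.29, 11.20 and 11.38 in control and 8.23, 8.20 and 8.29 in SAHA, an 8.28-fold fall (change -3.05, 95% interval -3.18 to -2.92). In KIF15 and KIF11 all 3 SAHA arrays were far under the lowest control array.

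KIF18A shortens and steadies the microtubules attached to chromosomes, so that chromosomes line up. It was at 10.28, 10.12 and 10.33 in control and 7.15, 7.06 and 6.98 in SAHA, a change of -3.18 (95% interval -3.34 to -3.01). Its relative KIF18B, which acts on astral microtubules, changed by -2.50. KIF2C, or MCAK, is a kinesin that does not walk but takes microtubule ends apart and so corrects faulty attachments at the centromere. Its values were 10.18, 10.21 and 10.19 in control and 7.17, 7.07 and 7.28 in SAHA, an 8.11-fold fall, and the groups did not overlap in any of these genes.

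KIF4A, a chromokinesin that also limits the length of the midzone with PRC1, was at 10.36, 10.56 and 10.49 in control and 7.55, 7.13 and 7.54 in SAHA. Its change was -3.07 (95% interval -3.33 to -2.80), with SAHA replicate 2 lower than the other SAHA arrays. The probe set shared by KIF4A and KIF4B went the same way, at -1.82. KIF22, the other chromokinesin, which pushes chromosome arms away from the poles, changed by -2.27, and its other probe set by -2.25.

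The motors of cell division proper fell as well. KIF20A, which brings Aurora B to the midzone, was at 11.49, 11.45 and 11.45 in control and 8.21, 8.28 and 8.18 in SAHA, a 9.41-fold fall (SE 0.0445, adjusted p = 5.41e-09). KIF23, the motor of the centralspindlin complex, changed by -2.74, and KIF20B, which acts in the last step of cytokinesis, by -2.73. KIF14, which brings citron kinase to the midbody, had the smallest fall of the 11, -1.67, from 9.66 ± 0.0074 to 7.99 ± 0.058 (SD, n = 3). KIF2B, a spindle kinesin of the same family as KIF2C, was at 6.62 ± 0.11 in control and 6.57 ± 0.13 in SAHA (SD, n = 3), with overlapping arrays and a change of -0.045 (95% interval -0.23 to 0.14, adjusted p = 0.661). No background call was made on these arrays, so whether KIF2B is expressed at all is not settled. In RNA from whole cultures, fewer cells in mitosis and less kinesin RNA per cell cannot be told apart.

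Rises among the transport kinesins were led by KIF5C and KIF1A, motors best known from neurons. KIF5C, a heavy chain of kinesin-1, was at 6.84, 7.08 and 6.87 in control and 9.91, 9.96 and 9.98 in SAHA. This was an 8.11-fold rise (change 3.02, SE 0.0679, adjusted p = 1.84e-08). KIF1A, which carries precursors of synaptic vesicles along axons, was at 9.37, 9.47 and 9.36 in control and 11.17, 11.19 and 11.23 in SAHA, a 3.47-fold rise (change 1.80, 95% interval 1.68 to 1.91). For KIF5C and KIF1A the SAHA arrays were close together and all far above the control arrays.

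The 4 kinesin-2 genes, which drive transport inside cilia and in axons, rose together. KIF3A and KIF3B form a heterotrimer with KIFAP3. KIF3A was at 8.94, 8.87 and 8.72 in control and 9.85, 9.96 and 9.92 in SAHA (change 1.07, 95% interval 0.91 to 1.22). KIF3B was at 9.21, 9.32 and 9.40 in control and 10.14, 10.13 and 10.18 in SAHA (change 0.84, 95% interval 0.71 to 0.97). KIF3C, which can replace KIF3B as the partner of KIF3A, was at 8.55, 8.76 and 8.53 in control and 9.92, 9.90 and 9.96 in SAHA, a 2.49-fold rise. KIF17, the homodimeric member, changed by 0.76, from 7.07 ± 0.14 to 7.83 ± 0.084 (SD, n = 3). In each of these genes the lowest SAHA array was above the highest control array.

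The kinesin-3 carriers moved both ways. KIF13B was at 8.30, 8.49 and 8.20 in control and 9.62, 9.57 and 9.51 in SAHA, a 2.36-fold rise (SE 0.0766, adjusted p = 2.69e-06). KIF1B, which carries mitochondria and synaptic vesicle precursors, changed by 0.62 (95% interval 0.52 to 0.72), and KIF16B, a motor of early endosomes, by 0.38 (95% interval 0.26 to 0.49). KIF13A, which moves recycling endosomes, fell instead, with values of 9.33, 9.39 and 9.21 in control and 8.86, 8.76 and 8.84 in SAHA (change -0.49, adjusted p = 0.000131). KIF1C, a carrier of dense-core vesicles, also fell, with values of 9.82, 9.86 and 9.85 in control and 9.44, 9.51 and 9.46 in SAHA (change -0.38, adjusted p = 0.000101). These falls were smaller than 2-fold, with no overlap between the groups.

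Within kinesin-1, the 3 heavy chains gave 3 different changes. KIF5B, the form found in nearly all tissues, was at 12.42, 12.41 and 12.39 in control and 12.25, 12.27 and 12.26 in SAHA, a fall of only 1.11-fold that passed the test (95% interval -0.24 to -0.056, adjusted p = 0.0115). KIF5A, found mainly in neurons, rose by 0.52 (95% interval 0.38 to 0.66). The log2 ratio of KIF5B to KIF5C on an array changed by -3.17, and that of KIF5A to KIF5B by 0.67. An exact permutation test over the 6 arrays gave p = 0.1 (two-sided) for both ratios, the smallest value 3 against 3 arrays allow, and p = 0.112 after adjustment over the 55 pairs of kinesins of the same family.

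Some families hold both a mitotic member and members of another role, and their ratios on an array are given for selected pairs. In the kinesin-3 family, the ratio of the mitotic KIF14 to the carrier KIF1A changed by -3.46 on the log2 scale. In the kinesin-12 family, KIF12 rose while KIF15 fell, and their ratio changed by 4.14. In the kinesin-8 family, the ratio of KIF18A to the ciliary KIF19 changed by -3.23. In the kinesin-13 family, the mitotic KIF2C (-3.02) and the centriolar KIF24 both fell. The mitotic KIF2B, whose expression is not settled, did not pass the test, and the ratio of KIF24 to KIF2B changed by -1.80. Each of these ratios had the same smallest exact permutation p of 0.1 (0.112 adjusted).

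**Figure D3:**
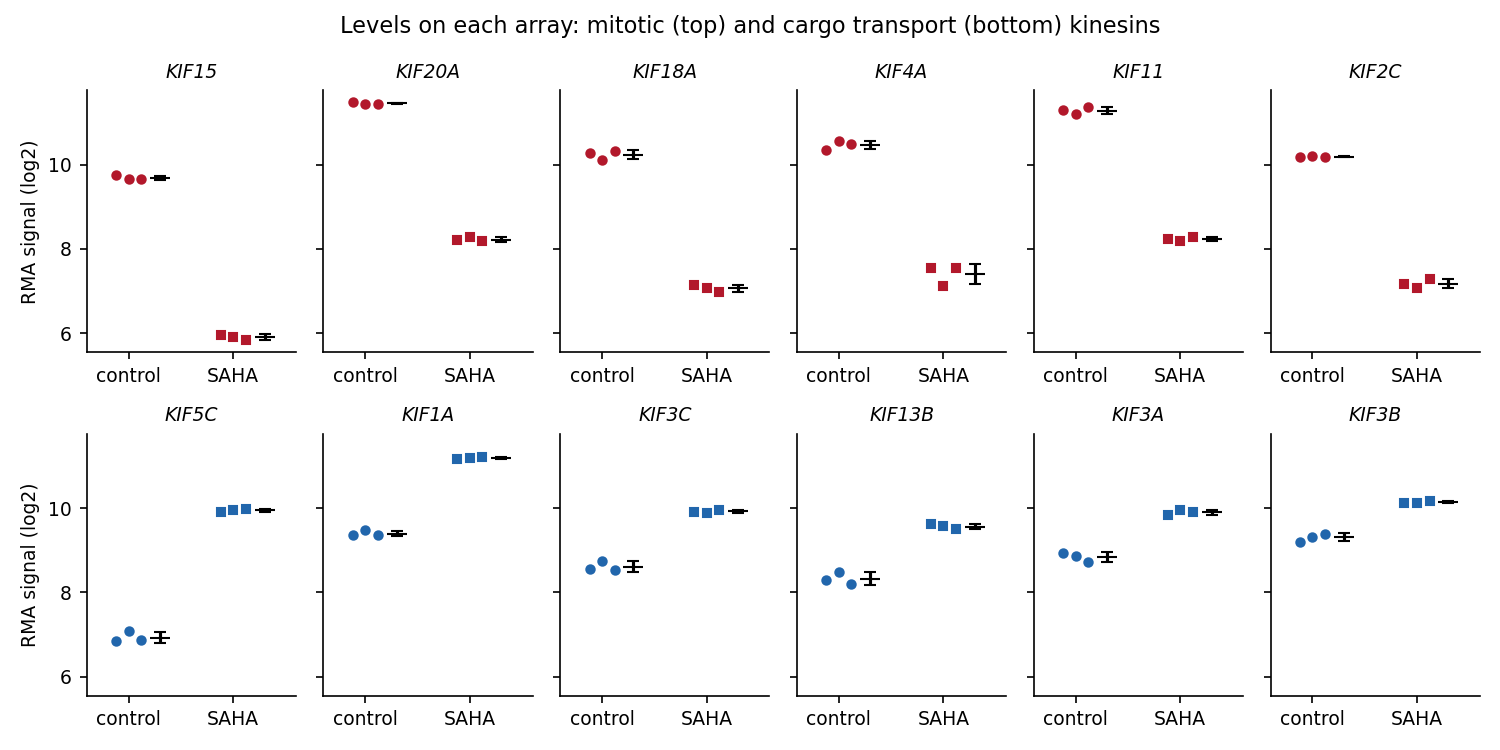
RMA signal (y axis, log2) on each of the 3 control arrays (circles) and 3 SAHA arrays (squares) for the 6 mitotic kinesins with the largest falls (top row) and the 6 transport kinesins with the largest changes (bottom row). Black bars are the mean and the SD, and in every panel the groups do not overlap.

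Among the other kinesins the largest change was that of KIF24, a centriolar kinesin that restrains cilium formation. It was at 7.68, 7.79 and 7.78 in control and 5.90, 5.95 and 5.86 in SAHA, a 3.59-fold fall (change -1.84, 95% interval -1.96 to -1.73), and was the only one of the 13 to change 2-fold. The KIF24 promoter held a CHR match, as did 9 mitotic kinesin promoters, whose genes each fell by at least 2-fold. KIF20A (-3.23) and KIF2C (-3.02) held no match to TTTGAA or TTCGAA, the only CHR forms searched. KIF5B, with a match, changed by -0.15. Whether a match goes with a change was not tested. KIF2A, a microtubule depolymerase of spindle poles and neurites and a relative of KIF2C, was at 11.31, 11.20 and 11.27 in control and 11.01, 10.96 and 10.96 in SAHA, a far smaller change of -0.28 (adjusted p = 0.000841). The log2 ratio of KIF2A to KIF2C changed by 2.74 (exact permutation p = 0.1, the smallest possible).

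KIF21A and KIF21B, kinesin-4 motors that slow microtubule growth, moved in opposite directions. KIF21A was at 8.80, 8.83 and 8.64 in control and 8.36, 8.35 and 8.46 in SAHA (change -0.36, adjusted p = 0.00103). KIF21B was at 7.24, 7.07 and 7.10 in control and 7.92, 7.93 and 7.91 in SAHA (change 0.78, adjusted p = 5.59e-06). Each group stayed apart from the other on all arrays.

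KIF9, known from motile cilia and sperm tails, was at 5.88, 5.81 and 5.94 in control and 6.60, 6.80 and 6.75 in SAHA, a rise of 0.84 (95% interval 0.69 to 0.99). KIF12 was at 7.09, 7.28 and 7.34 in control and 7.55, 7.59 and 7.60 in SAHA (change 0.34). KIF7, the Hedgehog pathway kinesin at the tip of the cilium, rose by 0.23 (adjusted p = 0.00529), the smallest of the 4 rises. The ciliary kinesins KIF6, KIF19 and KIF27 were at -0.018, 0.052 and 0.029, the atypical kinesins KIF26A and KIF26B at 0.035 and -0.071, and KIF25 at -0.095. None of these 6 passed the test, and their 95% intervals reached from -0.29 (KIF25) to 0.25 (KIF19). In KIF26B the arrays did not overlap although the test was not passed.

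Of 5 kinesins whose symbols follow another pattern, 2 were lower, 1 was higher and 2 missed the threshold. Among all genes 28.9% were lower and 31.1% higher. CENPE, the kinetochore motor that brings chromosomes to the spindle equator, changed by -3.03 (adjusted p = 5.52e-09), and KIFC1, the minus-end motor that bundles spindle poles, by -2.23 (adjusted p = 4.57e-08). KIFC2, a neuronal minus-end motor, rose by 0.60, and KIFC3 and STARD9 were at -0.012 and -0.051.

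The partners of the mitotic kinesins were lower too. All 20 measured genes of that list, which was chosen with earlier results of these data known, fell, against 28.9% of all genes. For 18 the fall was at least 2-fold, against 5.42% of all genes, and the median change was -2.59. The 3 with the smallest adjusted p were HMMR, a spindle assembly protein (-3.57), and the mitotic kinases PLK1 (-3.16) and AURKA (-2.84). RACGAP1, which joins KIF23 in centralspindlin, changed by -1.37, a smaller fall than the -2.74 of KIF23. PRC1, the midzone partner of KIF4A, changed by -2.58, and CIT, the citron kinase bound by KIF14, by -2.67. These 3 were chosen after their values were seen, for the motors they bind.

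Of 22 measured light chains, associated subunits and cargo adaptors of transport kinesins 17 rose and 3 fell, 2 missed the threshold, and the median change was 0.35. Among all genes 31.1% were higher and 28.9% lower. MAPK8IP1, the JIP1 adaptor that links kinesin-1 to its cargo, was at 7.88, 7.86 and 8.10 in control and 10.04, 10.01 and 10.16 in SAHA (change 2.13, adjusted p = 1.41e-07). SPAG9, the JIP4 adaptor, changed by 1.13 and KIFAP3, the third subunit of kinesin-2, by 0.83, a rise of the same order as those of KIF3A and KIF3B. The 3 that fell were KIFBP, which binds and blocks a set of kinesin motors (-0.67), the mitochondrial anchor RHOT1 (-0.36) and the cargo linker CLSTN1 (-0.31). Among the kinesin light chains, KLC1, KLC2 and KLC3 rose by 0.22, 0.18 and 0.82, and KLC4 was at 0.13 without passing.

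Cytoplasmic dynein and dynactin carry cargo the other way, towards microtubule minus ends. Of 26 measured genes 16 rose and 4 fell, 6 missed the threshold, and the median change was 0.27, against 31.1% higher and 28.9% lower among all genes. The smallest adjusted p were those of the light chain DYNLT3 (0.93), the dynactin subunit DCTN3 (0.80) and the adaptor HOOK1 (0.80), and DYNLL2, at 1.02, was the only one at 2-fold. Of 16 genes of the tubulin family, 6 rose and 10 fell, with a median of -0.21. The alpha and beta tubulins among them encode the tracks, while TUBG1, TUBG2, TUBD1 and TUBE1 do not. The smallest adjusted p were those of TUBB2B, TUBB4A and TUBA1A, which rose by 2.53, 2.12 and 1.50. Of the 10 that fell, only TUBE1 (-1.01) reached 2-fold, and TUBA1B changed by -0.60 and TUBA8 by -0.58. TUBB3 was not measured. Tubulin genes resemble each other closely, so a probe set may pick up RNA of several.

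**Figure D4:**
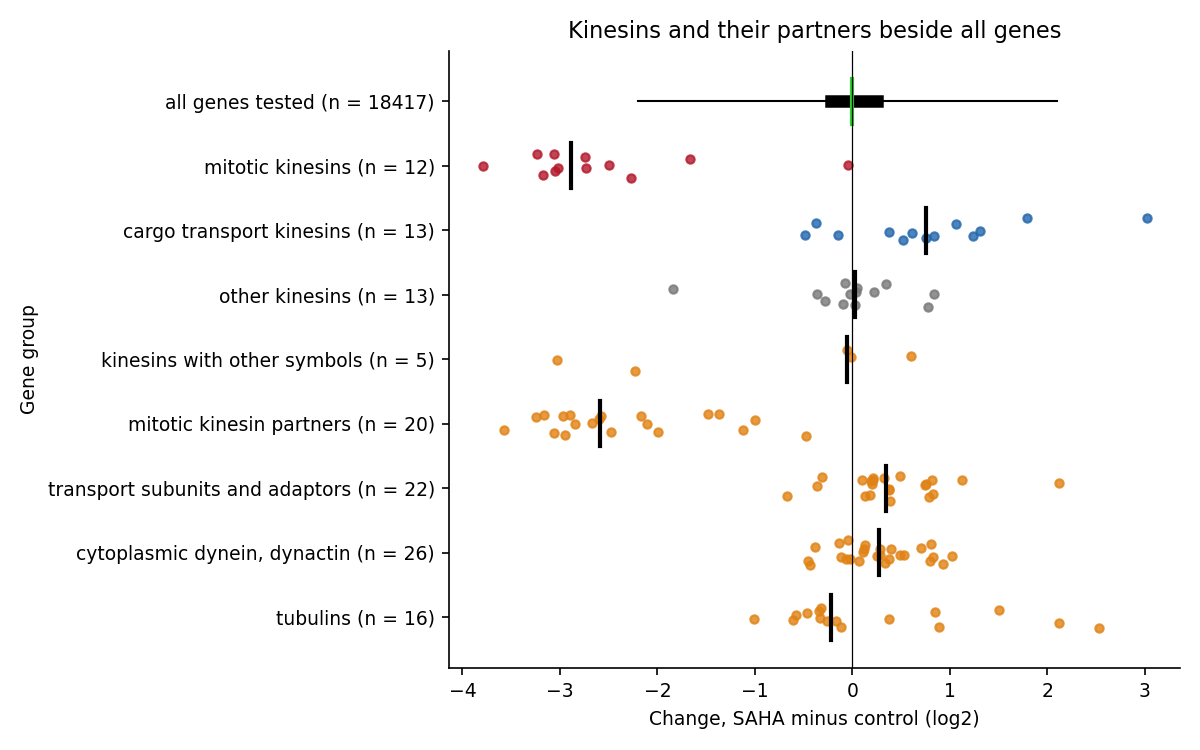
Change of each gene (points, SAHA minus control, log2) in the kinesin groups and in the lists of partners, with the median of each group as a black bar. For all 18417 genes the thin line spans the 1st to the 99th percentile (-2.20 to 2.10), the thick line the 25th to the 75th (-0.22 to 0.26) and the green bar is the median. The mitotic kinesins and their partners lie mostly left of the 1st percentile, the transport groups mostly right of 0.

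Short lists of known genes describe the treatment and the cells. The 4 measured genes of a list known as induced by HDAC inhibitors all rose, among them CDKN1A, which encodes p21 (1.30). Among all genes 31.1% were higher and 28.9% lower. That list was chosen with earlier results of these data known, so its rise is no independent check of the treatment. Of the 5 markers of rhabdoid cells, SMARCB1 (-0.51), MUC1 (-0.28), KRT18 (-0.21) and VIM (-0.18) fell, and KRT8 (-0.069) did not pass. Their control levels were 7.74 for SMARCB1, which is typically lost in these tumours, 7.80 for MUC1, 13.54 for KRT18, 12.81 for VIM and 13.55 for KRT8. With no background call, these levels do not settle which markers the cells express. Among 9 housekeeping genes, 5 missed the threshold, 2 were higher and 2 lower. Of 5 blood markers CD14 and CD68 rose and 3 did not pass, and the summed linear signal of the list was 1132 to 1300 in control and 3664 to 3739 in SAHA. That sum comes mostly from CD14 (mean 8.94 in control, 10.94 in SAHA) and CD68 (9.09 and 10.63). Of 5 endothelial markers CDH5 and TEK fell, KDR rose and 2 did not pass. Their summed signal was 6855 to 7123 in control and 1656 to 1727 in SAHA. It comes almost wholly from CDH5 (mean 12.73 in control, 10.54 in SAHA), as the other markers had control means of 5.03 to 5.85. No marker of either list was at 0 on any array, and their part in the kinesin changes was not tested.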

How the data were processed

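Total RNA was labelled with the Ambion WT Expression Kit for Affymetrix whole-transcript arrays, per the labels' protocols. Probe set intensities were summarised with RMA, per the submitters' processing notes. The version of the software is not given in the sources used here. Deposited intensities were linear (6.56 to 20338), so log2 was taken first. Of 33252 probe sets, 19460 named 1 gene, 1754 several and 12038 none. Symbols were updated through Entrez identifiers (19429 matched, RefSeq GRCh38.p14). For genes with several probe sets, the one brightest on average over the 6 arrays was taken, and no dim gene was left out.

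Groups and replicate numbers come from the sample titles. SAHA was compared with control with limma 3.58.1 in R 4.3.3 (lmFit and eBayes, no covariates, two-sided, Benjamini-Hochberg adjustment over 18417 genes, threshold 0.05). The script was tested on simulated data. Every kinesin is named. Values on all arrays are given for the 6 largest called changes per role group and for called members that differ in direction from most of their group, and 3 genes with the smallest adjusted p for other lists of the pathway. The members, lists and motifs were chosen with earlier results of these data known. Alternatives were a further quantile normalization, median centring, cyclic loess scaling, a filter on low genes, averaged probe sets, a robust eBayes fit with a trend, the replicate block, wide role groups and each array left out in turn.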

Additional observations from a re-analysis of the deposited data

Results flagged for a closer look

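Probe sets that name a kinesin together with another gene, or an antisense gene, were outside the comparison. Of 6 such probe sets 2 were higher in SAHA than in control, 2 lower and 2 not called (limma, adjusted over all 33252 probe sets). The share of all probe sets called in that fit is not given here. In the fit over genes 60% were called, so these counts are not read as a result about kinesins. The probe set that names RET and KIF5B rose by 0.846 (adjusted p = 0.000112), from 6.15, 6.34 and 6.25 to 7.16, 6.98 and 7.14, whereas the probe set of KIF5B alone fell by 0.15. Which of the named genes the RET and KIF5B signal comes from was not tested. The probe set of KIF25-AS1, antisense to KIF25, rose by 0.23 (adjusted p = 0.0364), from 7.10, 7.29 and 7.33 to 7.47, 7.50 and 7.44, while KIF25 itself did not pass the test. Of the lower probe sets, one of the pair that names LOC389765 and KIF27 changed by -0.24 (adjusted p = 0.0109) and the other by -0.13 (adjusted p = 0.0818), while KIF27 itself did not pass the test, and the probe set of KIF4B and KIF4A changed by -1.82.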

How the results depend on the processing

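The 11 falls among the mitotic kinesins and the 10 rises and 3 falls among the transport kinesins kept their counts under every alternative that kept the members and groups as they are, and no called kinesin changed sign under any of 13 alternatives. With dim genes (mean under the median of all genes) left out, 9 mitotic, 11 transport and 3 other kinesins were tested, of which 9 mitotic kinesins were called lower and 8 transport kinesins higher, the mitotic median was -3.02, 0 other kinesins were called higher, 3660 genes in all were called higher (5735 without the filter), and the other kinesins' median was -0.28. The difference of the mitotic and transport medians was -3.60 after a further quantile normalization, -3.58 with cyclic loess, -3.86 with low genes left out and -3.50 with wide role groups, where the mitotic median was -2.74. It ran from -3.68 to -3.57 when single arrays were left out. The cause of these shifts was not tested. The median of the other kinesins had no settled sign: -0.011 after a further quantile normalization, -0.013 with cyclic loess, and -0.046 to 0.066 when single arrays were left out.

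Of single genes, KIF26B was called lower after a further quantile normalization (-0.11) and with cyclic loess (-0.13). Signs turned only in genes that did not pass: KIF26A was at -0.011 with the further quantile normalization and -0.013 with cyclic loess, KIF19 at -0.0021 with cyclic loess. With single arrays left out, KIF2B ran from -0.12 to 0.010, KIF6 from -0.099 to 0.026, KIF27 from -0.0088 to 0.066, KIF26A from -0.012 to 0.097 and KIF19 from -0.046 to 0.11.

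Arrays of the same replicate number did not deviate together (correlations of -0.030, -0.17 and -0.0042 for numbers 1, 2 and 3). For unlike numbers the correlations were -0.074 to 0.10. No pairing by number was seen, but with 3 arrays per group this check cannot exclude one. With the replicate block, the counts of called kinesins were unchanged (11 mitotic lower, 10 transport higher and 3 lower, 4 other kinesins higher and 3 lower), and over all genes 5520 were called higher and 5081 lower. Signal over background was not available, so changes of dim genes may be understated.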
